A study of Homo sapiens with 9 samples.

Results

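The metastatic breast line MIV was compared with MII, a line that represents carcinoma in situ, across all genes measured. The comparison uses 6 of the 9 arrays of the series, 3 of MIV and 3 of MII, assigned to their line by the sample titles, and the 3 arrays of a further line, MIII, entered the fit to estimate the spread. MII is the cell line MCF-10AT1Kcl2 and MIV the cell line MCF-10A1a. Both descend from MCF-10A, a non-tumorigenic human breast epithelial line, through derivatives that carry activated HRAS and were passaged as xenografts in mice. MII and MIV grew in the same medium, with horse serum, insulin, cholera toxin, epidermal growth factor and hydroxycortisone, and neither received a treatment. Each stage is represented by 1 cell line, so stage and line cannot be told apart. Arrays of the same line are labelled as biological replicates, with no word on separate cultures. The p-values therefore reflect variation from array to array, part of which could be technical.

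MCF-10A cells belong to the basal type of breast epithelium and share much of their gene expression with keratinocytes. As such cells differentiate they make secreted kallikrein proteases, protease inhibitors of the serpin B clade and the proteins of the cornified envelope, a crosslinked layer under the cell membrane. Loss of epithelial genes together with gain of VIM, FN1 and other mesenchymal genes is known as epithelial-mesenchymal transition. Sterol synthesis and the interferon response are programmes whose genes are switched together, the first by the SREBP transcription factors and the second by STAT and IRF factors.

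Total RNA was hybridised to Affymetrix arrays, and each value is a MAS5 signal, a brightness on a linear scale for 1 probe set, the group of probes that reads 1 transcript. Of 12594 genes tested, each read by its brightest probe set, 652 (5.18%) were called lower and 373 (2.96%) higher in MIV, or 8.14% in all. Counts of called members in each gene list below are to be read against these shares. Calls needed a limma adjusted p below 0.05 with a 2-fold or greater change on the scale of log2(signal + 18.3), the fitted scale, where all changes below are MIV minus MII with their standard error. The median change of all genes was -0.027, and 75.6% of the genes changed by less than 0.5 in either direction. The lines' arrays did not overlap for 98.9% of the called genes, against 50.7% of the genes tested. The rule for calls largely sets the first share, so it is no separate support for the calls. The median signal was 69 to 71.7 on the MII arrays and 64.7 to 65.2 on the MIV arrays, lower on every MIV array. With the tested genes set to the same median on each array 618 were called lower and 403 higher (60.5% lower). Quantile normalization gave 599 lower and 398 higher (60.1% lower). The part of the lower MIV medians in the counts at the floor below was not tested. The pooled median of all 9 arrays, 69.3, served as a floor under which signals have no order. The ratio of 3′ to 5′ GAPDH control signal was 1.06 to 1.16 in MII and 1.04 to 1.09 in MIV. MIV replicate 3 stood apart in its bioB hybridisation controls, with a mean of 3133 against 1001 to 1523 on the other 8 arrays. Without that array 642 genes were called lower and 359 higher. The number of arrays limits the precision, with a median standard error of 0.11.

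The epithelial label held in both lines. All 10 breast epithelial markers with a named probe set lay above the floor on every array, among them KRT5 (25794 ± 922 in MII and 25069 ± 669.7 in MIV, SD, n = 3), KRT18 and EPCAM. KRT14 alone of the 10 was called, falling from 2155 ± 85.4 in MII to 137 ± 20.4 in MIV. CDH1 was lower in MIV without a call, with 7116 to 7390 against 11782 to 12383 in MII. The median change of the 10 was 0.22. HRAS, the oncogene these lines carry, was bright in both, with 13590.0 ± 354 in MII and 18136 ± 783 in MIV, a change of 0.42 ± 0.05 that is short of 2-fold. Of 9 fibroblast and stromal markers, 5 in MII and 6 in MIV were under the floor on all arrays, and COL1A2, PDGFRA, PDGFRB and LUM were among them in both lines. FAP was above the floor on all 6 arrays, with 637 to 728 in MII and 355 to 430 in MIV (-0.77, not called). COL1A1 was above it on all 6 as well, with 205 to 265 in MII and 183 to 250 in MIV. DCN was above it on every MII array. The summed signal of the 9 was 1137 to 1175 in MII and 789 to 867 in MIV. The 6 leukocyte markers summed to 1672 to 1885 in MII and 466 to 683 in MIV, a difference made by CD14, which epithelial cells can express and which fell from 1489.6 ± 58.3 to 323 ± 39.4. The leukocyte marker PTPRC was under the floor on all 6 arrays, and CD3E was above it on 5, with 40.2 to 107. Of 6 endothelial markers CDH5, VWF, KDR, TEK and CLDN5 were under the floor on all 6 arrays, and PECAM1 was above it on all, with 120.4 to 213 in MII and 248 to 340.3 in MIV (0.78, not called). The part of these marker levels in the results was not tested.

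**Figure D1:**
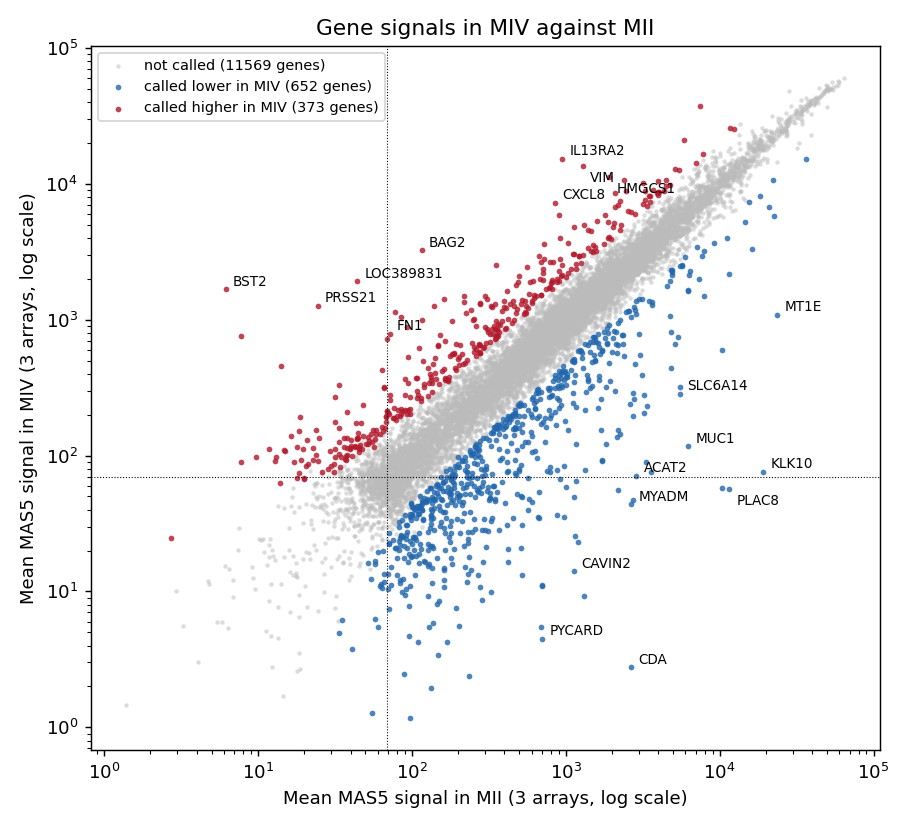
Mean MAS5 signal of each gene in MII (horizontal axis, log scale) and MIV (vertical axis, log scale), with 3 arrays a line. Blue points are the 652 genes called lower in MIV, red points the 373 called higher and grey points the rest, and dotted lines mark the pooled median of 69.3. Most of the points far from the diagonal lie on the side of genes lower in MIV.

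Large falls outnumbered large rises. With signals under the floor set to it, so that a fold is a lower bound where one was, 497 of the lower and 298 of the higher genes changed by at least 2-fold. At least 4-fold was reached by 150 lower and 49 higher genes, at least 16-fold by 24 and 5, and at least 32-fold by 10 and 0. The other 155 lower and 75 higher calls rest in part on differences between signals under the floor. Of the lower genes 208 went from all 3 MII arrays above the floor to all 3 MIV arrays under it, which is 1.65% of the genes tested and 31.9% of the 652, and these are called lost below. The opposite, called gained, held for 60 of the higher genes, or 0.476% of the genes tested and 16.1% of the 373. With the floor at the pooled 25th percentile of 18.3, 39 genes were lost and 4 gained. Called genes with all 6 arrays above the floor, whose change is measured on both sides, comprised 288 lower and 250 higher genes. The excess of lower over higher genes was largest among dim genes. Where the brighter line had a mean signal under 200, 7.73% of 2859 genes were lower and 3.25% higher. Where it exceeded 5000, 2.46% of 1380 genes were lower and 3.19% higher.

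The 15 largest falls on the fitted scale included secreted and surface proteins of differentiated epithelium. KLK10, a kallikrein-related serine protease, had signals of 19651, 18287 and 19786 on the MII arrays and 94.6, 39.0 and 94.4 on the MIV arrays. PLAC8, a small cysteine-rich protein, had 11341, 10907 and 12318 in MII and 61.4, 47.7 and 61.6 in MIV. KLK7, a protease of the outer epidermis, had 10462, 10123 and 10678 in MII and 54.5, 72.0 and 46.2 in MIV. All 3 genes thus went from among the bright signals of MII to near the floor. Their arrays did not overlap between the lines, which was required of the 15 largest falls. The log2 changes of the 3 genes were -7.74 ± 0.20, -7.27 ± 0.10 and -7.12 ± 0.13. Because whole cultures were measured, fewer cells making a transcript and less of it per cell cannot be told apart. With signals under the floor set to it, the falls came to at least 226-fold, 166-fold and 148-fold. The surface mucin MUC1 fell from 6277 ± 168 to 117 ± 18.8, still above the floor in MIV. GCNT3, a glycosyltransferase that branches mucin sugars, fell by 5.01 ± 0.26. DEFB1, an antimicrobial beta-defensin, fell from 3306 ± 349 to 89.2 ± 15.4, and WFDC2, a secreted protein with a protease inhibitor fold, from 3564 ± 142 to 75.7 ± 6.62. Other probe sets of the same genes gave -3.28 for KLK10, -7.81 for KLK7 and -1.05, without a call, for WFDC2.

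A further group of these 15 encodes enzymes and intracellular proteins, most of them lost in MIV. Since the fitted scale counts differences under the floor, ranks among lost genes are not exact, and by folds over the floor MT1E (21.9-fold), SLC6A14 (19.5-fold) and KLK6 (17.5-fold), measured in both lines, stand above CAVIN2 (at least 16.2-fold) and PYCARD (at least 10.1-fold). CDA, the cytidine deaminase of pyrimidine salvage, had 2716, 2626 and 2649.5 in MII and 2.4, 3.0 and 2.9 in MIV. GDA, which deaminates guanine, had 2768, 2739.5 and 2756 in MII and 46.8, 43.3 and 50.5 in MIV. The MIV arrays lay under the floor for both enzymes, and their changes were -6.99 ± 0.15 and -5.41 ± 0.17. In the list of nucleoside salvage genes the phosphorylase TYMP also fell (-1.64 ± 0.23), while the other 18 of the 21 tested members were not called. PYCARD, the adaptor that links inflammasome sensors to caspase-1, had 613, 647 and 857 in MII and 6.8, 2.3 and 4.3 in MIV. CAVIN2, the caveola coat protein named SDPR in the title of the series, had 992, 1268 and 1115 in MII and 20.3, 20.8 and 1.2 in MIV. MYADM, a membrane protein of lipid rafts, had 2676 ± 229.9 in MII and 43.7 ± 19.8 in MIV. For each of these the 3 MIV arrays lay under the floor and far below every MII array. TENT5B, a non-canonical poly(A) polymerase, fell by 5.68 ± 0.28. CLIC3, an intracellular chloride channel protein, fell by 4.97 ± 0.27 and ACAT2, the first enzyme of the sterol pathway, fell by 5.03 ± 0.12.

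**Figure D2:**
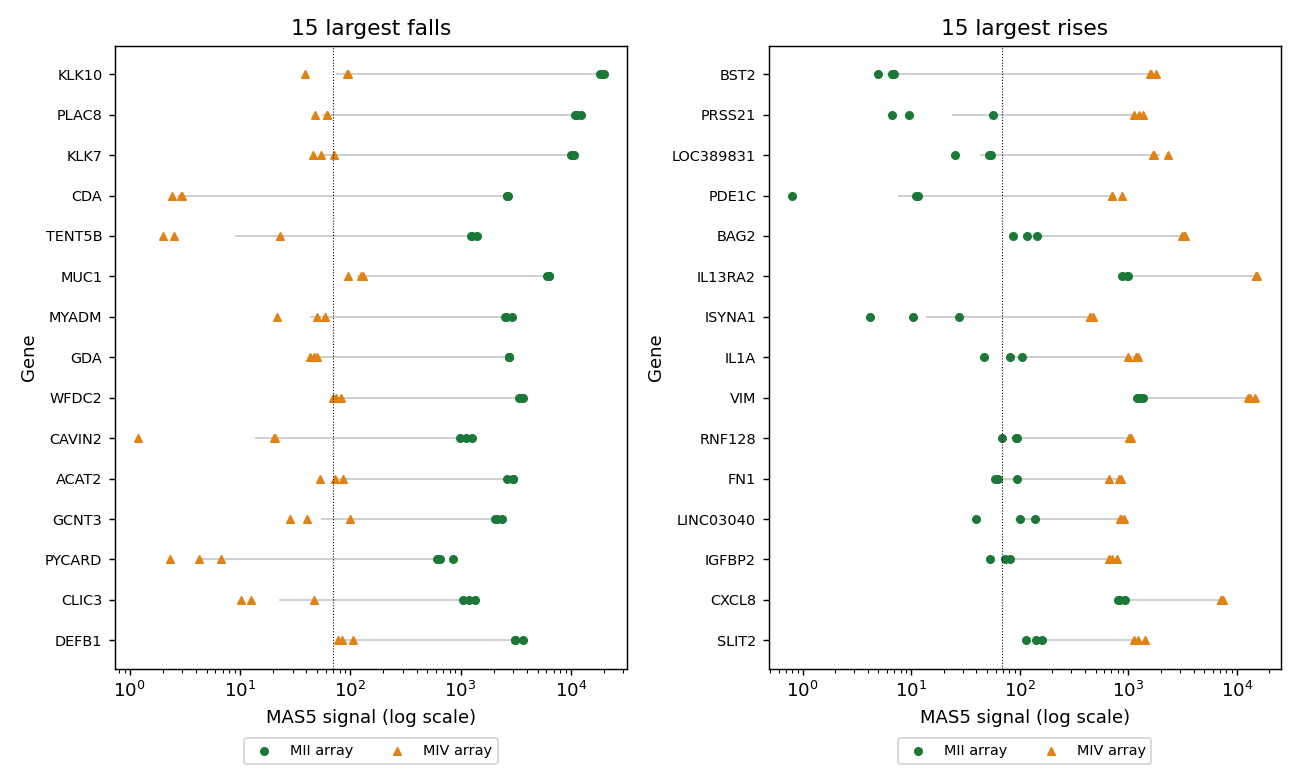
MAS5 signal of the 15 genes with the largest falls (left) and the 15 with the largest rises (right) on the fitted scale, drawn on a log axis. Green circles are the 3 MII arrays, orange triangles the 3 MIV arrays, grey lines join the line means and the dotted line is the pooled median of 69.3. The arrays of the lines do not overlap for any gene shown, which the choice of these genes required.

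BST2, an interferon-induced membrane protein that tethers budding virus particles, had the largest rise on the fitted scale. Its signals were 6.9, 6.6 and 5.0 on the MII arrays and 1809.8, 1583 and 1633 on the MIV arrays, and its change was 6.11 ± 0.11. PRSS21, a membrane-anchored serine protease known as testisin, had 57.2, 9.6 and 6.6 in MII and 1371, 1135 and 1269.6 in MIV. PDE1C, a calcium-dependent phosphodiesterase, had 11.5, 0.8 and 11.1 in MII and 705, 880.3 and 702 in MIV. These genes were under the floor on every MII array and well above it on every MIV array, a rise of at least 24.1-fold, 18.1-fold and 10.9-fold over the floor. LOC389831, an uncharacterised gene, and ISYNA1, the inositol-3-phosphate synthase, were also gained, by 4.97 ± 0.21 and 3.95 ± 0.23. A second probe set of ISYNA1 gave -0.25 and was not called. BAG2, a cochaperone of HSP70, had 144, 118 and 87.1 in MII and 3343, 3264 and 3105 in MIV. The decoy receptor IL13RA2 had 977, 879 and 986 in MII and 15458, 14979.5 and 15065 in MIV. Both were above the floor in MII as well, so that their rises of 4.62 ± 0.12 and 3.98 ± 0.06 do not rest on it, and that of BAG2 is 28.4-fold. No order of BAG2 against BST2 and LOC389831 (at least 27.3-fold) can be read from these values. The guidance factor SLIT2 rose by 3.03 ± 0.12, the ubiquitin ligase RNF128 by 3.36 ± 0.19, the non-coding LINC03040 by 3.13 ± 0.38 and the growth factor binding protein IGFBP2 by 3.09 ± 0.13.

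Keratinocyte differentiation was represented among the lower genes by the cornified envelope, the kallikreins and the clade B serpins. Of 20 tested members of the cornified envelope list 11 were lower and 0 higher, with a median change of -1.22, where 5.18% of all genes were lower and 2.96% higher. IVL, or involucrin, an early crosslinked envelope protein, had 1129, 902 and 885 in MII and 106, 89.2 and 56.2 in MIV. The small proline-rich envelope protein SPRR1B had 5123, 5147 and 5036 in MII and 592, 728 and 674 in MIV. TGM1, the transglutaminase that crosslinks the envelope, had 157, 142 and 149.7 in MII and 11.5, 7.6 and 6.2 in MIV and was lost. Each pair of lines was fully separated, with changes of -3.30 ± 0.25, -2.91 ± 0.10 and -2.65 ± 0.35. SPRR3 (-2.33), SPRR1A (-2.06), the sciellin gene SCEL (-2.15), the lipoxygenase ALOX15B (-2.37) and the suprabasal keratin KRT10 (-1.11, and -0.87 without a call when MII replicate 1 was left out) fell too. SPRR1A lost its call (-0.89) on its suffix-free probe set, one whose name carries no mark for sequence shared with other transcripts. The plakins EVPL and PPL (-0.33 and -0.22) and the cystatin CSTA (0.037) were not called. With the filter at the pooled 75th percentile 6 members of the list were lower, since dim members such as TGM1 were then not tested.

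Kallikrein-related peptidases are secreted serine proteases that act in a cascade on desmosomal proteins of the skin surface. Of 11 tested, 5 were lower and 0 higher (median -0.73, mean -2.51). Beside KLK10 and KLK7, KLK6 fell from 10422 ± 187 to 597 ± 31.7, KLK8 from 1137 ± 22.7 to 49.6 ± 23.6 and KLK5 from 16214 ± 564 to 3315 ± 128 (SD, n = 3). KLK5, an activator of other kallikreins, thus kept a bright signal in MIV, unlike KLK7 and KLK10. The other 6 members, which include KLK11, KLK13 and KLK3, lay between -0.73 and -0.12. Of 7 tested serpins of clade B, which inhibit serine and cysteine proteases inside and outside cells, 4 were lower and 0 higher. SERPINB13 had 1101, 1238 and 1107 in MII and 28.4, 40.1 and 7.9 in MIV. SERPINB3 had 3277, 3380.0 and 3046 in MII and 199, 197 and 216 in MIV, and its near-identical neighbour SERPINB4 fell by 2.58 ± 0.31, though probes may not tell the pair apart. SERPINB5, or maspin, was not called (-0.13 ± 0.05), and SERPINB1 gave 0.61 ± 0.06. With suffix-free probe sets alone, 3 serpins could be tested and 0 were called.

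Several keratins of differentiated or activated epithelium fell, while those of simple epithelium were not called. KRT14, the basal partner of KRT5, had 2236, 2066 and 2164 in MII and 151, 114 and 146 in MIV, while KRT5 was not called (-0.041 ± 0.04). KRT16, a keratin of activated keratinocytes, fell from 5490.4 ± 66.2 to 318 ± 54.0. KRT23 (-4.91 ± 0.25), KRT13 (-2.76 ± 0.27) and KRT4 (-2.59 ± 0.39), of which the last pair is typical of inner stratified epithelia, were lost. In all, 7 of 14 tested keratins were lower and 0 higher. KRT7, KRT8 and KRT18 of simple epithelium had changes of 0.014, 0.22 and 0.23. The list of basal markers held no other call than KRT14 and KRT16 among 14 tested, with a median of 0.087 and a mean of the opposite sign, -0.45. Its members ITGB4, LAMB3, CDH3 and DST lay between 0.21 and 0.35.

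Several luminal surface genes fell. Of 17 tested members of the list of simple keratins and luminal markers 8 were lower and 0 higher, with a median of -0.55. Beside MUC1, the adhesion molecule CEACAM6 fell from 4846 ± 23.1 to 439.9 ± 41.7, CEACAM5 from 1837 ± 56.7 to 122 ± 32.2 and CEACAM1 from 6211 ± 136 to 1647 ± 35.8. CEACAM5 and CEACAM6 are close in sequence, and a second probe set of CEACAM5 gave -0.78. CD24, a surface antigen low on cells with stem-like features, had 21396, 23592 and 22592 in MII and 5662, 6038 and 5705 in MIV, fully separated but bright in both. AGR2, a disulfide isomerase of mucus-making cells, fell from 1146 ± 135 to 392 ± 44.6. The luminal regulators GATA3 (-0.55) and FOXA1 (-0.45) were not called.

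Calls among cell junction genes were near the share over all genes. Of 30 tested epithelial junction genes 2 were lower, against 5.18% of all genes tested, and 0 higher (median -0.26). They were the claudin CLDN8, which had 879, 873 and 897 in MII and 14.3, 39.6 and 54.7 in MIV, and the tight junction scaffold TJP3 (-1.11 ± 0.20), which lost its call (-0.95) with an offset at the pooled median. CDH1, or E-cadherin, had 12383, 11782 and 11999 in MII and 7116, 7357 and 7390.2 in MIV. These values do not overlap, but the change of -0.72 ± 0.05 stayed under 2-fold. CLDN7, OCLN, EPCAM, ESRP1 and RAB25 lay between -0.061 and 0.19. No desmosome gene was called by limma among 10 tested, where 5 had an unadjusted p under 0.05. The limma adjusted p was under 0.05 for 5 as well, and these missed the call on the 2-fold minimum. The widest changes were -0.75 for DSC2 and 0.36 for DSG2, and DSC2 was called lower (-1.34) when its probe sets were averaged.

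Mesenchymal genes were called in both directions. Of 30 tested members 7 were higher and 8 lower, with a median of -0.041. With signals under the floor set to it 5 of the 8 fell by at least 2-fold, and the 7 higher members rose by at least 2-fold. VIM, the mesenchymal intermediate filament, had 1379.9, 1212 and 1282 in MII and 13208, 12665 and 14798 in MIV. FN1, or fibronectin, had 59.4, 93.8 and 62.9 in MII and 827, 862 and 666 in MIV. SPARC, a collagen-binding matrix protein, had 34.8, 35.5 and 31.1 in MII and 424, 312 and 261 in MIV. All 3 rose, by 3.37 ± 0.06, 3.16 ± 0.13 and 2.73 ± 0.14, from a bright signal for VIM and from near or under the floor for FN1 and SPARC. A second probe set of VIM gave 0.32. FN1 was called on 4 of its 6 tested probe sets and gave 0.27 on its suffix-free one. ITGA5, the fibronectin receptor subunit, rose from 682 ± 41.6 to 1981 ± 93.2, and the adhesion molecule L1CAM by 1.48 ± 0.09. In the other direction S100A4, a calcium-binding protein often used as a mesenchymal marker, had 3549, 3209.7 and 3399 in MII and 272, 226 and 201 in MIV. The transcription factors TWIST2 (-2.77 ± 0.12) and FOXC2 (-2.33 ± 0.13), the receptor kinase AXL (-1.58 ± 0.06) and TGFBI (-1.39 ± 0.05) also fell. SNAI2 gave -0.67 without a call, and ZEB1 was under the floor on all 6 arrays.

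Several regulators of the epithelial state were lower. Among 34 tested epithelial and keratinocyte transcription factors 7 were lower and 2 higher. KLF4, which drives late epidermal differentiation, fell from 2372 ± 81.7 to 656 ± 36.4. ZNF750, a partner of KLF4 in that programme, had 299, 259.7 and 291 in MII and 64.0, 43.3 and 50.8 in MIV. HOPX, a homeodomain protein without DNA binding, had 313, 281 and 260.2 in MII and 14.3, 7.6 and 4.1 in MIV. ZNF750 and HOPX were lost, and ELF5, a regulator of mammary alveolar cells, fell by 1.95 ± 0.47 from a dim signal of 87.0 ± 5.67, a call lost (-0.99) with an offset at the pooled median and a fall of 1.25-fold over the floor. The epithelial ETS factors EHF (-1.21 ± 0.06) and ELF3 (-1.11 ± 0.08) and the inhibitor ID2 (-1.88 ± 0.12) fell by smaller amounts. The members that rose, BCL11A and RUNX2, lost their calls with that offset. GRHL1, GRHL2, OVOL1 and OVOL2 lay between -0.64 and -0.12, and GRHL3 was at 0.94, all without a call.

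Matrix and protease genes were called in both directions. Of 32 tested matrix glycoproteins and proteoglycans 7 were higher and 4 lower. Beside FN1 and SPARC, the fibrillin FBN2 rose from 219.7 ± 11.7 to 1339 ± 81.8, LAMA4, a laminin chain, by 1.90 ± 0.09 and the proteoglycan VCAN by 1.33 ± 0.13. LAMA4 gave 0.87 on its suffix-free probe set. EFEMP1, a fibulin, fell from 6235 ± 184 to 1629.7 ± 67.9, and NID2, a basement membrane linker, fell by 2.60 ± 0.37. Of 18 tested collagens 2 were higher and 1 lower, against 2.96% and 5.18% of all genes tested. Those collagen calls were lost with an offset at the pooled median. Of 35 tested proteases and inhibitors 9 were lower and 3 higher. TIMP3, a matrix-bound metalloproteinase inhibitor, had 862, 1088 and 978 in MII and 33.9, 28.9 and 42.9 in MIV. MMP7, or matrilysin, had 484, 504 and 462 in MII and 45.5, 46.9 and 63.2 in MIV. PLAU, the urokinase that activates plasminogen, had 448, 333 and 459 in MII and 1789, 1656 and 1459 in MIV. TIMP3 and MMP7 were lost and PLAU rose, with changes of -4.22 ± 0.12, -2.85 ± 0.14 and 1.95 ± 0.12. SPINK6, a kallikrein inhibitor, was lost as well (-3.74 ± 0.19), and the leukocyte protease inhibitor SLPI fell by 1.48 ± 0.05. Among integrins ITGB2, the leukocyte beta subunit, fell from 883 ± 49.9 to 77.6 ± 15.6 and ITGB7 fell by 2.64 ± 0.41.

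**Figure D3:**
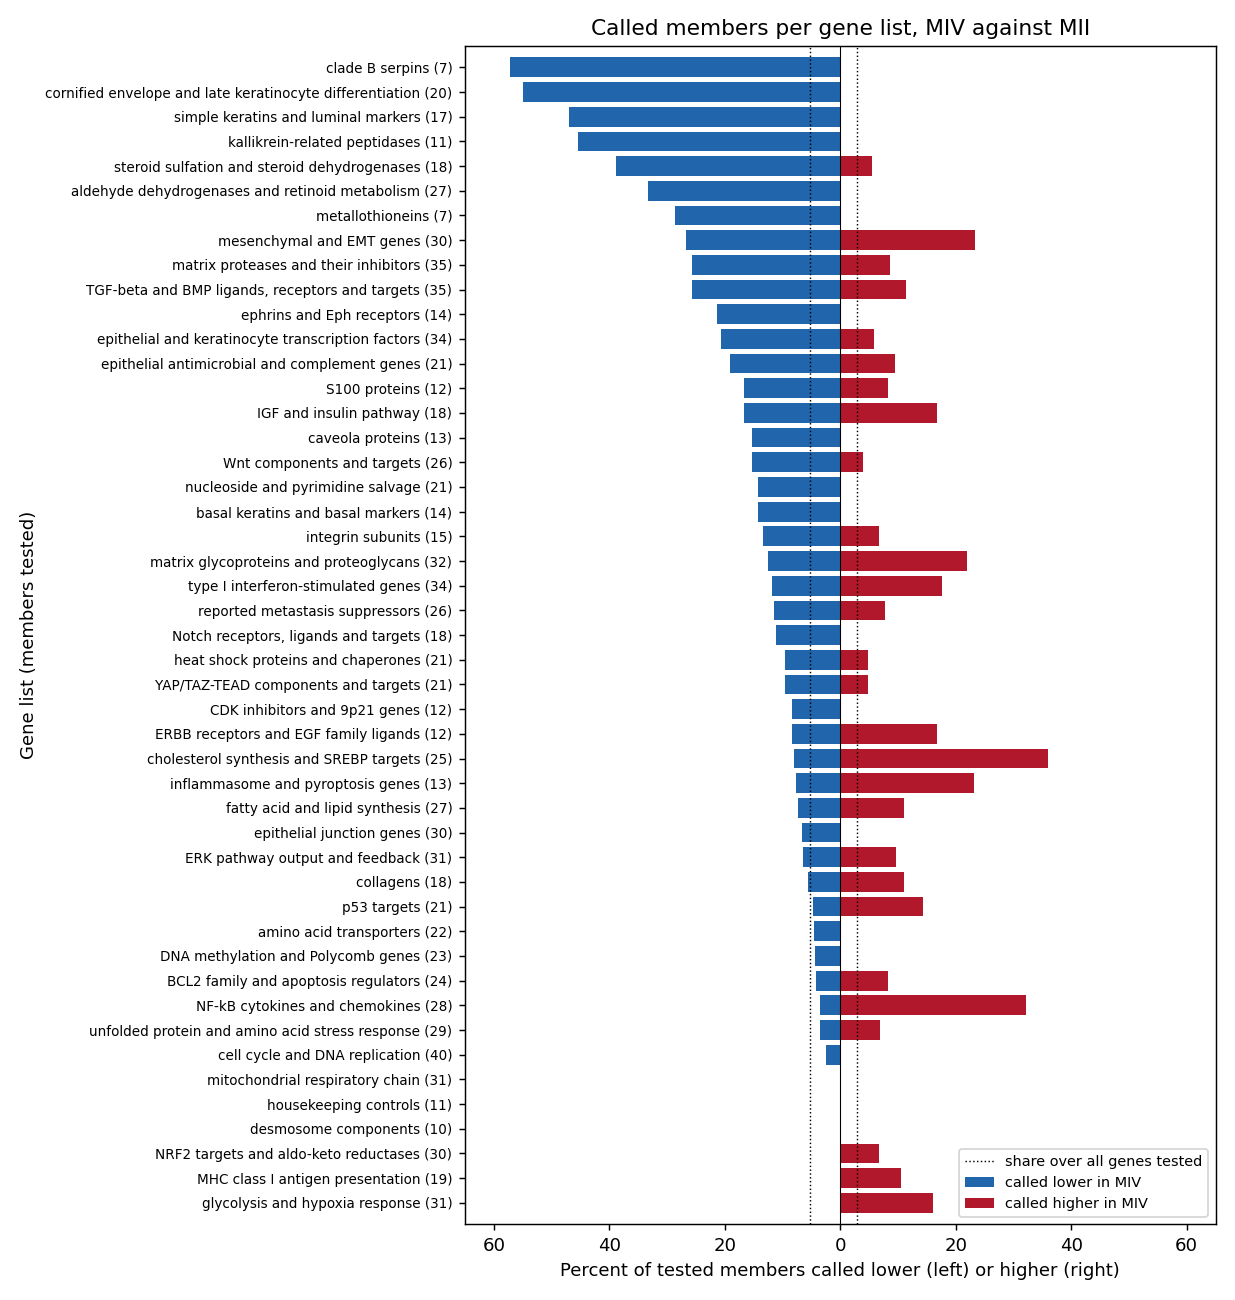
Percent of the tested members of each gene list called lower (blue, to the left) or higher (red, to the right) in MIV, with the number of members tested in brackets. Dotted lines mark the shares over all genes tested, 5.18% lower and 2.96% higher. The serpin, cornified envelope, luminal and kallikrein lists reach farthest to the left, and the cholesterol and NF-kB cytokine lists farthest to the right.

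Called genes of sterol synthesis were higher in MIV with the exception of the first enzyme. Of 25 tested members 9 were higher and 2 lower, with a median of 0.68. ACAT2, which joins acetyl-CoA units into acetoacetyl-CoA, had 2979.9, 2647 and 2999.6 in MII and 86.6, 53.5 and 72.8 in MIV. HMGCS1, which uses that product to make HMG-CoA, had 2009.7, 1892 and 1828 in MII and 12450.2, 10795 and 10448 in MIV. Adjacent steps of the pathway thus moved in opposite directions, with no overlap between lines for either. ACAT2 was read by 1 probe set. Further down the pathway the mevalonate decarboxylase MVD rose by 1.43 ± 0.10, the isomerase IDI1 by 1.81 ± 0.07, the squalene epoxidase SQLE by 1.08 ± 0.05, the lanosterol synthase LSS by 1.13 ± 0.06 and the methylsterol oxidase MSMO1 by 1.15 ± 0.05. IDI1 gave 0.38 on its suffix-free probe set. INSIG1, which retains SREBP in the endoplasmic reticulum and is itself an SREBP target, had 2240.4, 2588 and 2314 in MII and 10784, 10259 and 10783 in MIV. The other lower member, MYLIP, is a ubiquitin ligase that degrades the LDL receptor and is induced by sterol-sensing LXR, and it was lost (-2.73 ± 0.31). The kinases MVK and PMVK, the synthase FDPS and the reductase DHCR7 lay between 0.37 and 0.94, without calls. The transcription factor genes SREBF1 and SREBF2 gave -0.76 ± 0.12 and 0.52 ± 0.21. Fatty acid and lipid synthesis had 3 higher and 2 lower of 27 members (5 higher without MII replicate 3), against 2.96% and 5.18% of all genes tested. The lipase LPL fell from 418 ± 11.7 to 31.0 ± 11.8.

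Interferon-stimulated genes were called in both directions. Of 34 tested members 6 were higher and 4 lower, with a median of 0.15. Beside BST2, the ubiquitin-conjugating enzyme UBE2L6 rose by 1.68 ± 0.15, the factor IRF7 by 1.20 ± 0.13, the secreted LGALS3BP by 1.20 ± 0.06, the antiviral IFIT3 by 1.14 ± 0.20 and the RNA sensor RIGI by 1.12 ± 0.13. OAS1, which makes the activator of RNase L, had 1881, 1546 and 1647 in MII and 156, 189 and 119 in MIV, a change of -3.32 ± 0.15 without overlap. IFI44L (-1.65 ± 0.21), EPSTI1 (-1.24 ± 0.27) and IFITM1 (-1.02 ± 0.12) were called from dimmer signals, and IFI44L had 2 MII and all MIV arrays under the floor, which leaves 1.08-fold over it. With an offset at the pooled median those 3 calls and those of IFIT3 (0.84) and RIGI (0.99) were lost, which left 4 higher and 1 lower member. Without MII replicate 1 IFIT3 gave 0.94 and was not called. Without MIV replicate 3 EPSTI1 and IFITM1 gave -0.91 and -0.92 and were not called, which left 2 lower members. The 24 members without a call ranged from -0.98 for SAMD9 to 0.90 for DDX60, with ISG15 at -0.053 and IFI6 at 0.74. The interferon-inducible proteasome subunits PSMB9 and PSMB8, which trim peptides for MHC class I, rose by 1.66 ± 0.11 and 1.27 ± 0.13. The class I heavy chains HLA-B and HLA-C gave -0.81 and -0.92 without a call.

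Interferon responses act on promoters through the interferon-stimulated response element, searched here as GAAA, 2 bases of any kind and GAAA again, on both strands in the 250 bases before and 50 after the RefSeq gene start (GRCh38.p14). Promoters were matched for 27 of the 34 tested members. The motif was present in 3 of 5 higher members, 3 of 4 lower members and 12 of 18 members without a call, against 2.74% of 10232 promoters of genes tested and 3.65% of all 27305 in the table. A stretch is shown for members called in each direction, since both hold the motif. Capitals mark 1 match per stretch, and each stretch lies upstream of the gene start and reads 5′ to 3′ on the strand of the gene. In the BST2 stretch a second match, partly in lower case, overlaps the marked one and starts 124 bases before the gene start.
BST2: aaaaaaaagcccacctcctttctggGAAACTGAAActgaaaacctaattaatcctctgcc
LGALS3BP: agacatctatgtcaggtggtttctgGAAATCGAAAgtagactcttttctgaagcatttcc
IFITM1: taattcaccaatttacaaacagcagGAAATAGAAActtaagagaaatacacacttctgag
EPSTI1: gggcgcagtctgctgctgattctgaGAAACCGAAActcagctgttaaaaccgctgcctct
The stretches lie at chr19:17405726-17405785 (minus strand) for BST2, chr17:78979947-78980006 (minus strand) for LGALS3BP, chr11:313975-314034 (plus strand) for IFITM1 and chr13:42992257-42992316 (minus strand) for EPSTI1. BST2 and LGALS3BP were called higher, and IFITM1 and EPSTI1 were called lower, with the limits on those 2 calls given above. A sterol regulatory element, searched as TCACNCCAC, was in none of the 8 promoters of higher sterol genes and in 1.15% of all promoters, and the window and letters limit what such a search can find.

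**Figure D4:**
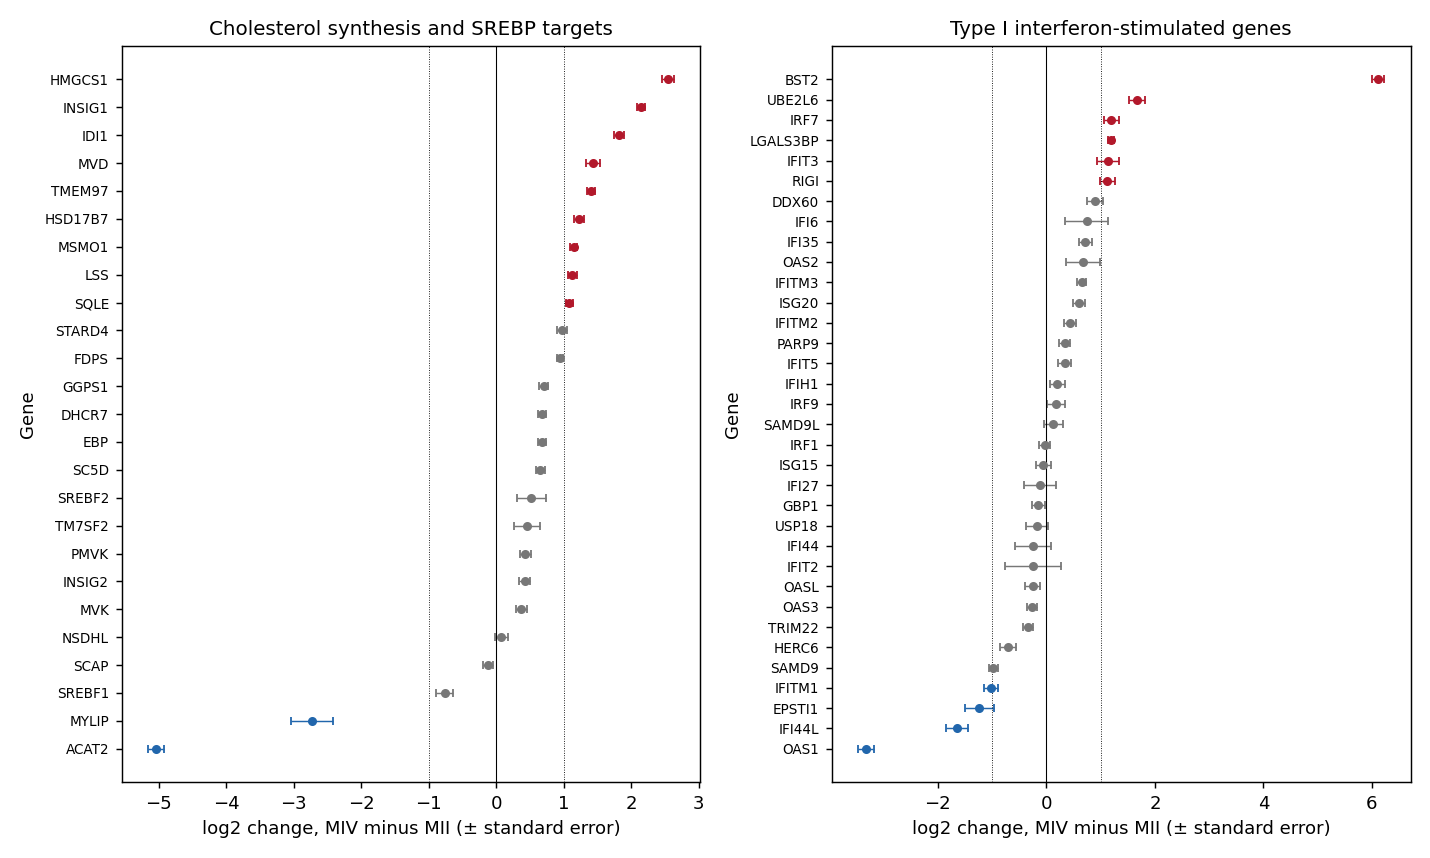
Fitted log2 change, MIV minus MII, of every tested sterol gene (left) and interferon-stimulated gene (right), with standard errors as whiskers. Red points were called higher, blue lower and grey were not called, and dotted lines mark 2-fold. Sterol genes lie to the right of 0 except ACAT2, MYLIP, SREBF1 and SCAP, while interferon genes spread to both sides with BST2 far to the right.

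Several inflammatory cytokines rose in MIV. Of 28 tested NF-kB cytokines and chemokines 9 were higher and 1 lower, with a median of -0.017 and a mean of the opposite sign, 0.48. IL1A, a cytokine released by damaged epithelium, had 105, 46.8 and 80.8 in MII and 1001, 1174 and 1223 in MIV. IL1B had 164, 212 and 168 in MII and 944, 962 and 1046 in MIV. CXCL8, the neutrophil chemokine interleukin 8, had 804, 842 and 925 in MII and 7404, 7181 and 7198 in MIV. None of these overlapped between the lines, and the changes were 3.63 ± 0.20, 2.33 ± 0.11 and 3.06 ± 0.06. IL1A gave 0.18 on its suffix-free probe set, with no call. CXCL1 rose by 1.61 ± 0.11, the cytokine LIF by 1.29 ± 0.09, the subunit NFKB2 by 1.42 ± 0.13 and the feedback inhibitor TNFAIP3 by 1.05 ± 0.12. NFKB2 gave 0.73 with averaged probe sets, and TNFAIP3 0.97 without MII replicate 1, both without a call. The decoy receptor IL1R2, which captures interleukin 1, was the lower member (-1.59 ± 0.41, and -0.96 without a call with an offset at the pooled median). In the inflammasome list, PYCARD was lost while the pore-forming GSDME and GSDMD rose by 1.73 ± 0.12 and 1.30 ± 0.20, and CASP1 was not called (0.37). Among antimicrobial and complement genes, the siderophore-binding LCN2 fell from 5387 ± 317 to 745 ± 60.2 beside PLAC8 and DEFB1, and the complement component C3 rose from 1040.4 ± 82.4 to 3683 ± 270.2.

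The called genes of retinoid and steroid metabolism were lower with 1 exception. Of 27 tested genes of aldehyde dehydrogenases and retinoid metabolism 9 were lower and 0 higher. SDR16C5 and DHRS9, retinol dehydrogenases, fell from 2721 ± 70.0 to 194 ± 7.10 and from 1655 ± 72.2 to 357 ± 16.3. ALDH3A1 (-2.47 ± 0.19), ALDH3B1 (-1.87 ± 0.11), the retinoid-responsive RARRES1 (-1.55 ± 0.07) and the retinoic acid carrier CRABP2 (-1.43 ± 0.14) fell as well. Of 18 tested steroid enzymes 7 were lower, 4 of them by at least 2-fold over the floor, and 1 higher. SULT1E1, the estrogen sulfotransferase, had 464, 418 and 380.1 in MII and 24.3, 22.5 and 15.1 in MIV, while STS, the sulfatase that reverses sulfation, fell from 936 ± 156 to 234 ± 31.6. The enzyme that adds the sulfate and the one that removes it were thus both lower. The exception was AKR1C3, which reduces steroid ketones and rose by 1.04 ± 0.05. CYP1A1 (-2.50 ± 0.33) and CYP1B1 (-1.95 ± 0.12), oxidases induced through the aryl hydrocarbon receptor, fell, the former by 1.57-fold over the floor. Of 20 tested cytochrome P450 genes 7 were lower, 4 of them by at least 2-fold over the floor, and 0 higher. Among 7 tested metallothioneins, small zinc-binding proteins of near-identical sequence, MT1E fell from 23619.5 ± 577 to 1082 ± 139.8 and MT1F from 14591 ± 307 to 5230.2 ± 137, and the other 5 lay between -0.92 and -0.45. SLC6A14, a broad amino acid importer, had 5532, 5528 and 5427 in MII and 237, 303 and 309 in MIV and was the only called gene of 22 tested amino acid transporters.

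Some hypoxia-responsive genes rose. Of 31 tested members 5 were higher and 0 lower (median 0.085). VEGFA, the vascular growth factor, had 1715, 1448 and 1628 in MII and 5697, 4981 and 5334 in MIV. BNIP3, a mitophagy receptor, had 1288, 1376 and 1506 in MII and 4377, 4650.0 and 4668 in MIV. NDRG1, a reported metastasis suppressor induced by hypoxia, had 739, 598 and 801 in MII and 2306, 2266 and 2450.4 in MIV. All 3 were bright in both lines and rose by 1.73 ± 0.07, 1.70 ± 0.06 and 1.70 ± 0.09. Apart from the aldolase ALDOC (1.56 ± 0.10) and the kinase PFKFB3 (1.06 ± 0.18), no glycolytic enzyme of the list was called. PFKFB3 gave 0.84 without MII replicate 3 and 0.99 without MIV replicate 2, in both cases without a call. The amino acid stress genes TRIB3 and ATF3 rose by 1.69 ± 0.07 and 1.72 ± 0.20, ATF5 fell by 1.24 ± 0.11, and 26 of the 29 tested members were not called. ATF3 gave 0.29 on its suffix-free probe set. Of 26 tested reported metastasis suppressors 3 were lower and 2 higher, against 5.18% and 2.96% of all genes tested. The lower ones were CAVIN2, TIMP3 and TIMP2 (-1.19 ± 0.08). The higher ones were NDRG1 and the scaffold AKAP12, which went from 905 ± 96.3 to 5861 ± 393. CAVIN2 was included in that list because the title of the series names it.

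Calls among signalling genes were spread over several pathways, where 5.18% of all genes tested were lower and 2.96% higher. In the ERK list DUSP5, a nuclear ERK phosphatase, rose by 1.15 ± 0.08, EGR1 by 1.25 ± 0.06 and the FGF pathway inhibitor IL17RD from 163 ± 28.2 to 1417 ± 63.6, while DUSP2 and EPHA4 were lost. Among TGF-beta and BMP genes 9 were lower and 4 higher of 35, and 6 of the 9 fell by at least 2-fold over the floor. The ligand TGFB2 had 711, 866 and 800.5 in MII and 59.8, 78.5 and 108 in MIV. The activin subunit INHBB had 233, 338 and 407 in MII and 8.6, 3.1 and 17.8 in MIV, and its relative INHBA had 2074, 2019.8 and 2167 in MII and 6774, 6556 and 6734 in MIV. The activin subunits thus moved in opposite directions, with changes of -3.61 ± 0.38 and 1.67 ± 0.06. The receptor TGFBR2 fell by 1.32 ± 0.05, and the ligand TGFB1 rose by 1.32 ± 0.09, with 0.74 and no call when all its probe sets were averaged. IGFBP3 fell from 2098 ± 337 to 299 ± 58.7 and IGFBP6 from 1355 ± 108 to 295 ± 17.8, where IGFBP2 rose. The EGF family ligand EREG rose from 1456 ± 52.7 to 4459.5 ± 54.0, and EGFR was not called (-0.23 ± 0.07). Of 26 tested Wnt genes 4 were lower, led by the receptor FZD7 (-1.92 ± 0.07), and 1 higher, LEF1 (1.33 ± 0.31). FZD7 alone of the 4 kept its call with an offset at the pooled median. LEF1 lost its call with that offset (0.87) and without MII replicate 3 (0.89). Of 14 tested ephrins and Eph receptors 3 were lower and 0 higher.

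Few proliferation and energy genes were called, where 8.14% of all genes tested were called, a share at which short lists also hold few calls. Of 40 tested cell cycle and replication genes E2F2 was the only one called (-1.13 ± 0.13), and its call was lost when its probe sets were averaged (-0.67). The list median was 0.089. CDKN1A, the p21 inhibitor of cyclin-dependent kinases, had 8178, 7692 and 7979 in MII and 1544, 1449 and 1468 in MIV. Of 21 tested p53 targets 3 were higher, 1 was lower and 17 were not called, with a median of 0.19. CDKN1A was the lower one (-2.40 ± 0.06). The higher ones were DDB2 (1.07 ± 0.07), PLK3 (1.38 ± 0.18) and GDF15 (1.02 ± 0.05). With averaged probe sets PLK3 gave 0.58 and GDF15 0.58, without calls. GDF15 also lost its call with quantile (0.98) or cyclic loess normalization (0.99) and without MII replicate 3 (0.99). Of 24 tested apoptosis regulators HRK was lost (-2.01 ± 0.26), and BIK and MCL1 were called higher at the edge of 2-fold (1.04 and 1.02). BIK gave 0.99 without MII replicate 1, and MCL1 0.98 without MII replicate 2 or MIV replicate 1, none of them called. limma called no gene among 31 respiratory chain subunits, whose changes lay between -0.36 and 0.45, or among 11 housekeeping genes. At an unadjusted p under 0.05 these lists had 17 and 5 members. At a limma adjusted p under 0.05 they had 13 and 5, which missed the call on the 2-fold minimum. The cytosolic ribosomal proteins had 1 call among 58 tested, RPL39L, a paralog restricted to few tissues, which went from 914 ± 72.8 to 2801 ± 85.1.

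Position along the chromosomes was not used to call genes. In the gene order of GRCh38.p14, 11 runs of at least 3 neighbouring tested genes were called in 1 direction, 9 lower and 2 higher, with 37 genes in all. The longest was KLK5, KLK6, KLK7, KLK8 and KLK10 on chromosome 19. Chromosome 18 held SERPINB13, SERPINB4, SERPINB3 and SERPINB7, and chromosome 1 held SPRR1A, SPRR3, SPRR1B and SPRR2B of the epidermal differentiation complex. Each of these is a family of neighbouring duplicated genes, so their members are not independent. The same holds for the phospholipases PLAAT4, PLAAT2 and PLAAT3 on chromosome 11, where PLAAT4 lost its call (-0.78) with an offset at the pooled median, for CYP4B1 and CYP4X1 on chromosome 1, for CYP4F3 and CYP4F12 on chromosome 19, and for the histone genes H2BC4, H2AC6 and H2BC5 on chromosome 6, whose near-identical sequences probes may not separate. Unrelated neighbours fell together on chromosome 5 (RHOBTB3, GLRX and ELL2), and on chromosome 21 ITGB2 fell with its antisense neighbour ITGB2-AS1 and PTTG1IP. The higher runs were TNFSF9, CD70 and C3 on chromosome 19 and CNTN3, ROBO1 and GBE1 on chromosome 3. TNFSF9 and CD70 are costimulatory ligands of the TNF family and rose by 1.26 ± 0.15 and 1.53 ± 0.10. Over whole chromosomes the median change was 0.26 for 502 genes of chromosome 10, 0.19 for 704 of chromosome 3 and -0.20 for 848 of chromosome 19, and between -0.108 and -0.001 for the others. On chromosome 10, 6.77% of genes were higher and 3.39% lower.

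**Figure D5:**
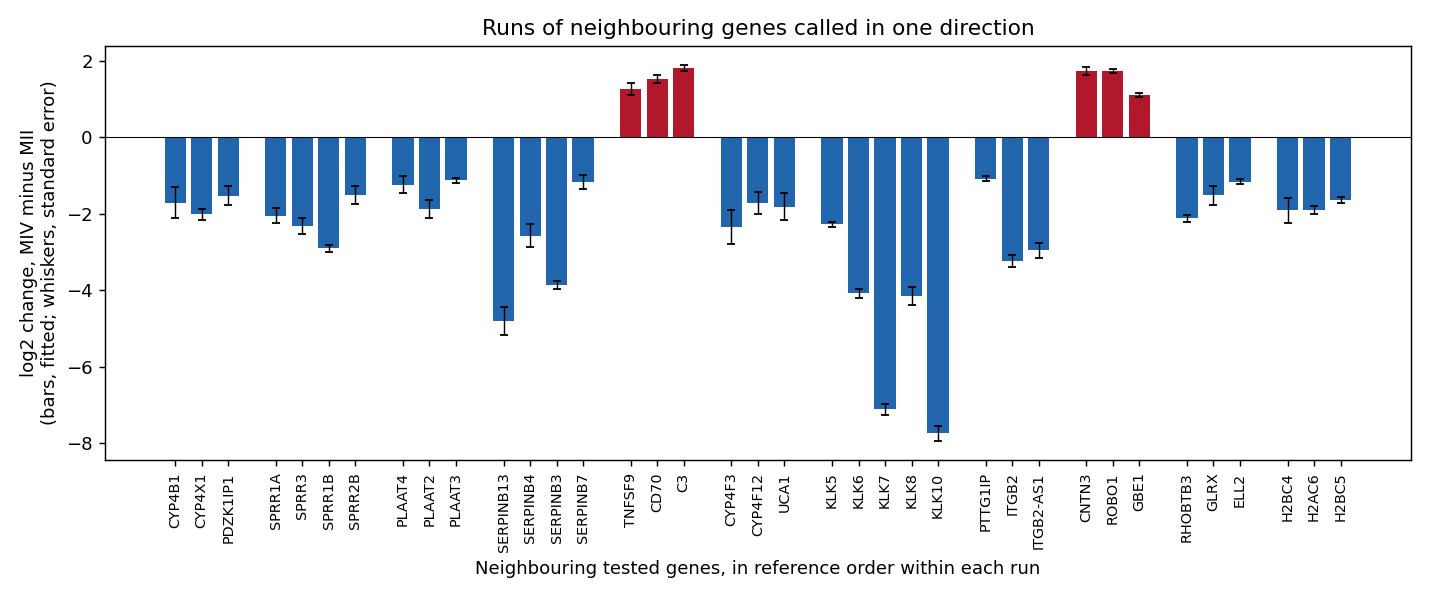
Fitted log2 change, MIV minus MII, of the 37 genes in 11 runs of neighbouring genes called in 1 direction, in chromosome order within each run, with standard errors as whiskers. Blue bars were called lower in MIV and red bars higher. The kallikrein run on chromosome 19 is the longest and reaches the lowest values.

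The carcinoma line MIII was not part of the comparison, and its levels are given for context without a test. In MIII several of the genes that fell deepest were already dim, with mean signals of 192 for KLK10, 295 for PLAC8, 50.9 for KLK7 and 78.1 for GCNT3. MYADM and PYCARD were at 2611 and 711, close to their MII levels. Of the genes that rose, BST2 and PRSS21 were at 2502 and 1373 in MIII, LOC389831 and RNF128 at 57.8 and 36.9, and VIM and FN1 at 35106 and 20521. The genes lower in MIV than in MII thus include some that MIII retained and others that it did not.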

How the data were processed

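The submitters' processing notes name MAS5, and the deposited values are unlogged intensities of each probe set on each array. Its version and detection calls are not given in the sources used here. With a trimmed mean of 500.07 on every array, the values were not scaled again. Of 54675 probe sets 41091 were assigned to 1 gene, 1801 to several and 11721 to none (62 were controls), and the brightest probe set stood for each gene. Genes above the pooled median of 69.3 on at least 3 of 9 arrays were tested. limma 3.58.1 in R 4.3.3 fitted log2(signal + 18.3), the offset being the pooled 25th percentile, to the group means of all 9 arrays (6 residual degrees of freedom), with an intensity trend and Benjamini-Hochberg adjustment. Probe sets without a mark for shared sequence (_s_at, _x_at and the like) are called suffix-free. In data simulated for this comparison 46.0% of genes changed by 1 in log2, 92.0% of those changed by 1.5 and 97.5% of those changed by 2 were called. A change of 1 lies at the 2-fold minimum itself, and 83.5% of those genes had a limma adjusted p under 0.05. Each simulation changed 200 of 12594 genes, fewer than were called in the data.

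Genes were named by rule: the 15 largest rises and falls whose arrays do not overlap, up to 4 called members per list and direction, up to 2 per family, all runs of neighbouring called genes, and the 10 brightest lost and gained genes. Further members were named after their values were seen. The gene lists were chosen with earlier results of these data known. Same-numbered arrays of the lines deviated together with correlations of 0.0257, 0.00653 and 0.00273, against -0.0162 to 0.00916 for arrays of different numbers. Such values cannot show whether a number was shared between lines, and the labels do not say, so the main fit did not pair the arrays. Alternatives changed the offset, filter, normalization, probe set rule, fit, threshold, floor and arrays.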

Additional observations from a re-analysis of the deposited data

How the results depend on the processing

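The 652 lower and 373 higher genes moved with the threshold and with the treatment of dim genes. With an offset at the pooled median 681 genes were called, 243 of them higher. With the filter at the pooled 75th percentile 535 were called, 239 higher and 296 lower, of fewer genes tested. Without the fold minimum 5310 were called, 2514 higher and 2796 lower (52.7% lower). At an adjusted p under 0.01 and 4-fold 257 were called, 59 higher and 198 lower (77.0% lower). Against a 2-fold null (limma's treat) 386 were called, 120 higher and 266 lower. With the floor at the pooled 25th percentile 39 genes were lost and 4 gained. Leaving out 1 array at a time gave 1001 to 1031 calls, 346 to 384 higher and 635 to 666 lower (62.6% to 65.4% lower), with 208 to 231 lost and 51 to 72 gained. With the replicate number as a block 1026 genes were called, 373 higher and 653 lower, though the labels do not say that the numbers pair the arrays. Of the 231 called genes named by rule 181 kept their call under every alternative at the main threshold that gave a value, and 0 reversed. That count and the next leave out the changes of threshold, which are no fold minimum, 4-fold and treat. Of 2838 counts per list and setting 59 differed from the count reported both by more than 1 gene and by more than 1.5 times. Smaller shifts, such as from 1 call to 0, are not among the 59. Suffix-free probe sets, which fewer genes have, gave 24 of them and the filter at the 75th percentile 18. With suffix-free probe sets the lower counts were 6 for the cornified envelope, 3 for kallikreins, 5 for luminal markers and 2 for epithelial transcription factors, and the higher counts 5 for NF-kB cytokines and 4 for mesenchymal genes. With signals under the floor set to it, 795 of the 1025 called genes changed by at least 2-fold.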

Other observations

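Families defined by symbol alone add genes outside the lists above. Of 15 tested HOX genes 4 were lower and 0 higher in MIV, against 5.18% and 2.96% of all genes tested. By folds over the floor 3 of the 4 fell by at least 2-fold. HOXC8 lost its call with an offset at the pooled median (-0.72) and under several other alternatives. HOXB2 fell from 304 ± 10.2 to 21.2 ± 14.7 (SD, n = 3) and HOXB6 from 162 ± 39.1 to 29.5 ± 5.99, while their neighbours HOXB4 and HOXB5 were not called (-0.13 and 0.088). Among 22 forkhead genes FOXI1, a regulator of ion-transporting cells, fell from 230.3 ± 18.2 to 13.3 ± 8.26, and FOXL1 was called higher from 7.77 ± 2.57 to 89.0 ± 25.6, which is 1.25-fold over the floor. Kruppel-like factors were called in both directions, with KLF9 at -1.98 ± 0.14 beside KLF4 and KLF6 at 1.21 ± 0.07. Of 321 tested zinc finger genes 17 were lower, near the 5.18% of all genes, and 3 higher. Without MII replicate 1 the higher count was 5, and with an offset at the pooled median 10 were lower and 0 higher. Of 201 solute carriers 18 were lower and 8 higher, against 5.18% and 2.96% of all genes tested.

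Among 12 tested S100 proteins, calcium-binding proteins of epithelium and leukocytes, S100P fell by 1.24 ± 0.05 beside S100A4 and S100A9 rose from 132 ± 4.08 to 396 ± 22.5, whereas its partner S100A8 was not called (0.053 ± 0.34). Of 21 heat shock proteins and chaperones 2 were lower and 1 higher, against 5.18% and 2.96% of all genes tested. CRYAB, a small heat shock protein, fell by 2.48 ± 0.25 and HSPA2 fell by 2.00 ± 0.19, and BAG2 was the 1 that rose. In the Notch list the glycosyltransferase LFNG fell by 2.13 ± 0.23, or at least 1.85-fold over the floor. In the insulin pathway the receptor INSR fell by 1.21 ± 0.14, and the RNA-binding protein IGF2BP2 rose by 1.27 ± 0.05. Of 21 genes of the YAP and TEAD list WWTR1, or TAZ, rose by 1.09 ± 0.04, while the common targets CCN1 and CCN2 gave 0.091 and -0.046 without a call. GSTA4, a glutathione transferase for lipid peroxidation products, rose by 1.84 ± 0.15 and was the other call beside AKR1C3 among 30 NRF2 targets.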
